A study of Mus musculus with 8 samples.

Results

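The 10 genes described here belong to the p53 pathway and its growth-arrest response: Trp53, Mdm2, Cdkn1a, Ccng1, Bax, Bbc3, Trp53inp1, Sesn2, Gdf15 and Phlda3. They were taken by gene name from the deposited table of raw counts, which lists 56748 genes, and each name matched 1 row. RNA was sequenced from mouse primary hepatocytes in 8 libraries, 2 in each of 4 groups. All animals carried floxed alleles of both Yap and Taz, the transcriptional co-activators at the end of the Hippo pathway. The knockout animals had received AAV8-TBG-Cre, a virus in which the hepatocyte promoter of thyroxine-binding globulin drives the Cre recombinase, and the controls called wild type had received AAV8-TBG-Null, so they too carried floxed alleles and a virus. Mice were injected at 7 to 8 weeks of age. Hepatocytes were isolated 10 days later and cultured for 24 h on collagen-coated polyacrylamide hydrogels of 1 kPa (soft) or 20 kPa (stiff). The study's methods give male mice, while the labels and the design text disagree on the sex of the animals. None of these sources says how many animals gave a library, so the p-values measure the spread between libraries, which may be technical.

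The p53 protein is a transcription factor that is held low by the ubiquitin ligase Mdm2 and accumulates when DNA is damaged or the cell is stressed. It then raises transcription of genes that stop the cell cycle, such as Cdkn1a, of genes that open the mitochondrial death pathway, such as Bax and Bbc3, and of Mdm2 itself, which closes a feedback loop. In liver the pathway limits hepatocyte division and takes part in the response to toxic and metabolic stress. Much of its control lies in protein stability and modification, which RNA counts do not measure, and Sesn2, Gdf15 and Cdkn1a also respond to other stress pathways.

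Promoter sequence from RefSeq (GRCm38.p6, 250 bases before to 50 bases after a gene's start) was found for 9 of the 10 genes, all but Trp53inp1. A p53 half-site, the 10-base motif to which a pair of p53 molecules can bind, was searched together with the motifs of TEAD (CATTCC, the DNA-binding partners of YAP and TAZ), AP-1 (TGACTCA) and C/EBP-ATF factors (TGATGNAA). Both strands were searched. Of 32851 promoters, 8.36% held the p53 half-site, 14.7% the TEAD motif, 5.20% the AP-1 motif and 3.97% the C/EBP-ATF motif. The half-site was found in the windows of Trp53, Mdm2, Cdkn1a, Ccng1 and Bax, and the TEAD motif in those of Gdf15 and Phlda3. Neither of the other motifs was found in a member's window, and no matches of different motifs overlapped in these windows. A match is a description of the letters and not a binding site. Cdkn1a, the textbook p53 target, has 2 windows at different starts. The 250 bases before the start are printed for the window with 2 half-sites (in capitals) 73 and 51 bases before it. Gdf15, whose level differed between genotypes, also has 2 windows. The printed one holds a TEAD motif (in capitals) 137 bases before its start. The other windows, downstream for Cdkn1a (chr17:29093519-29093768) and upstream for Gdf15 (chr8:70632457-70632706), held none of the motifs searched. Both genes were chosen after their values were seen.
Cdkn1a promoter, chr17:29090729-29090978, plus strand: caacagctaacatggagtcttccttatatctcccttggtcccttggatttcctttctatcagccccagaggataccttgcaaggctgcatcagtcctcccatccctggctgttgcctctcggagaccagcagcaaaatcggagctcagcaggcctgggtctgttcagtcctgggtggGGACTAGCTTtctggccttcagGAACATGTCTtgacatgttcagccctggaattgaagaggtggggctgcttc
Gdf15 promoter, chr8:70632096-70632345, minus strand: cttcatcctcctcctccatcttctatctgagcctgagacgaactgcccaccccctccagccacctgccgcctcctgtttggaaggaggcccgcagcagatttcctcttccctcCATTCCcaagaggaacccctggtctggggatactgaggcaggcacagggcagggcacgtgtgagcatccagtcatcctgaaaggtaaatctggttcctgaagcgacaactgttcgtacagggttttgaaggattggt

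Library totals ran from 18324083 to 26442310 counts, and 14279 genes passed the filter on low counts and were tested, all 10 p53 pathway genes among them. Levels are given as CPM, a count per 1000000 counts of the tested genes after TMM scaling of the library. A count of 0 would allow up to 3 counts, or between 0.113 and 0.164 CPM, which covers counting error only. Each knockout library had fewer CPM of Yap1 (28.4 to 31.8) and of Wwtr1, which encodes TAZ (13.7 to 16.6), than any wild-type library (95.5 to 140.5 and 41.5 to 65.2). A gene was called where edgeR's quasi-likelihood test gave a Benjamini-Hochberg adjusted p-value under 0.05 and the log2 fold change was past 0.5 in either direction. The comparisons share libraries: the wild-type stiff libraries, for example, enter both the effect of stiffness in wild type and that of genotype on the stiff hydrogel.

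Markers of other liver cells moved with the groups. The summed level of 9 stellate cell and fibroblast markers was 35.0 to 35.4 CPM in wild-type soft, 21.9 to 24.1 in wild-type stiff, 49.0 to 50.2 in knockout soft and 50.9 to 53.5 in knockout stiff libraries. The same order was seen for 8 endothelial markers, with 62.8 to 68.8, 49.5 to 50.9, 81.8 to 83.4 and 84.5 to 87.0 CPM. For 8 Kupffer cell and macrophage markers the levels were 63.2 to 64.6, 44.5 to 49.2, 88.1 to 89.5 and 88.1 to 88.5 CPM. The 7 cholangiocyte markers summed to 549 to 584, 599 to 602, 345 to 348 and 321 to 333 CPM in the same order. Most of each sum was Spp1, and Cftr had 0 counts in every library. The stellate cell marker Lrat had 0 to 4 counts. The 8 hepatocyte markers summed to 87949 to 88633, 90921 to 92480, 60911 to 61442 and 60784 to 60914 CPM, of which Alb made up 89.7% to 94.5%. Of these 8, 0 were called higher and 3 lower with stiffness in wild type (1 higher at an unadjusted p under 0.05), and 3 were called higher and 2 lower in the knockout on stiff. In bulk samples fewer cells of a type and less RNA per cell cannot be told apart, and the part of these markers in the results below was not tested.

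Of the 10 genes, 2 differed between groups by enough to be called. Trp53inp1 was low in wild-type cells on the stiff hydrogel and high in the other groups, and Gdf15 was lower in the knockout on both hydrogels. The other 8 genes, which include Cdkn1a, Mdm2, Bax and Bbc3, were called in none of the 5 comparisons, and their group means spanned between 0.14 (Ccng1) and 0.58 (Trp53) on the log2 scale. Of all tested genes, 60.3% had a smaller span than Trp53 and 92.2% a smaller span than Trp53inp1.

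**Figure D1:**
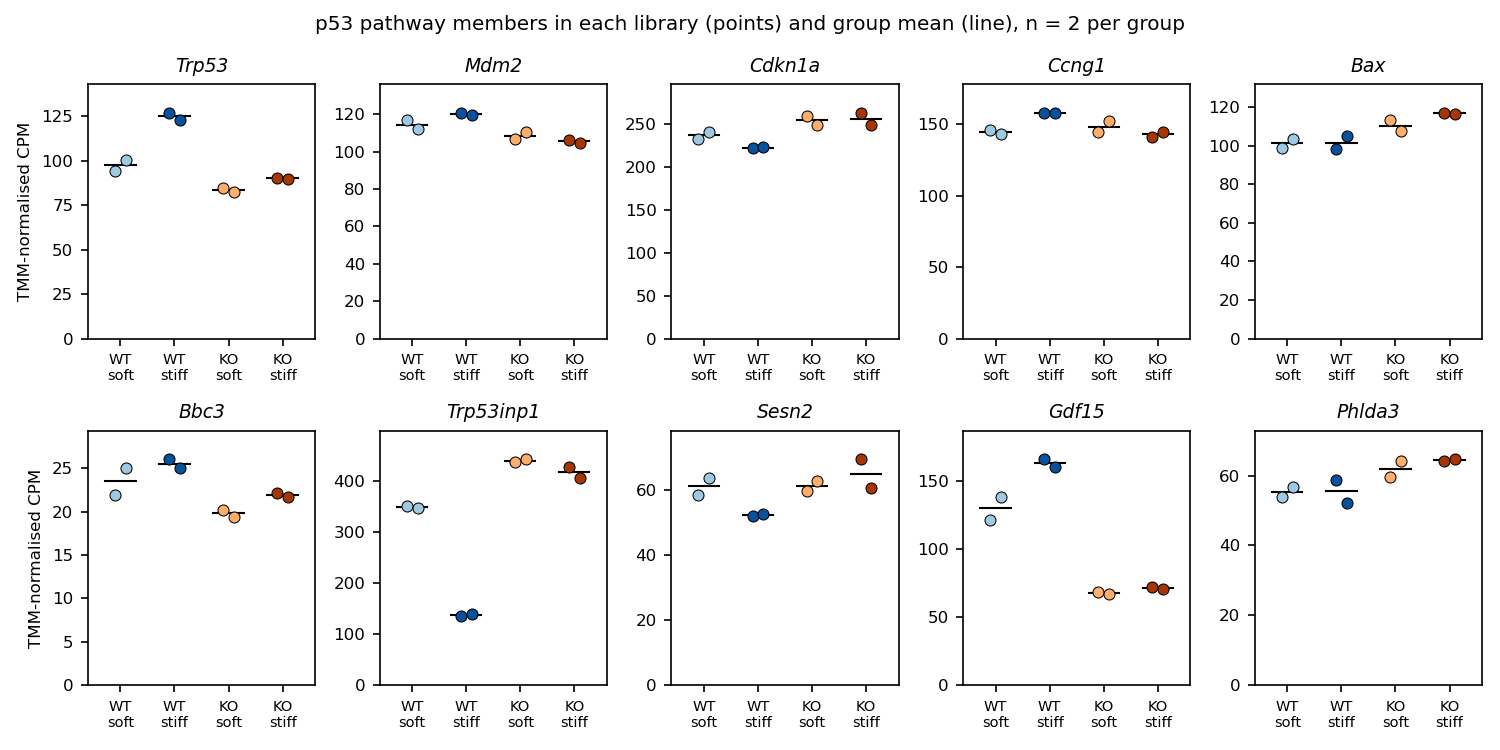
Normalized level (CPM, vertical axes from 0) of the 10 genes in each library of the 4 groups, with a line at each group's mean of 2 libraries. Trp53inp1 sits at 135 and 140 CPM in wild-type stiff libraries and between 346 and 442 in the others, and Gdf15 lies between 67.1 and 71.7 CPM in the 4 knockout libraries.

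Per length, in CPM per kb of the gene length in the deposited table, the genes kept to a range of less than 1 order of magnitude. In wild-type cells on the soft hydrogel the order was Gdf15 (70.0 ± 6.55 CPM per kb, SD, n = 2), Cdkn1a (66.8 ± 1.68), Bax (64.1 ± 2.13), Trp53inp1 (53.8 ± 0.63), Ccng1 (41.2 ± 0.48), Phlda3 (35.5 ± 1.33), Trp53 (24.1 ± 1.07), Mdm2 (22.5 ± 0.74), Sesn2 (17.6 ± 1.02) and Bbc3 (11.1 ± 1.01). The library values of Gdf15 (65.4 to 74.7 CPM per kb) overlapped those of Cdkn1a (65.6 to 68.0) and Bax (62.6 to 65.7), so these 3 neighbours were not separated. Trp53 (23.3 to 24.8) and Mdm2 (22.0 to 23.1) stood next to each other without overlap. In wild-type stiff libraries Gdf15 led at 87.9 ± 2.22 CPM per kb and Trp53inp1 came eighth at 21.2 ± 0.55. In knockout soft libraries Cdkn1a (71.7 ± 2.12), Bax (70.1 ± 2.49) and Trp53inp1 (67.8 ± 0.64) led and Gdf15 came sixth at 36.6 ± 0.60.

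Trp53 (ENSMUSG00000059552), which encodes p53 itself, lies on chromosome 11 from 69471185 to 69482699, plus strand. Positions are those of the deposited table, whose build is not settled by the sources used here. Wild-type libraries had 94.4 and 100.5 CPM of Trp53 on soft and 127 and 123 on stiff, and knockout libraries 84.7 and 82.2 on soft and 90.3 and 89.7 on stiff. The wild-type stiff libraries were the highest, every knockout library lay below every wild-type library, and no groups overlapped. On the stiff against the soft hydrogel the log2 fold change was 0.36 in wild type (95% interval 0.25 to 0.47, adjusted p = 1.57e-05 from edgeR), and 0.11 in the knockout (adjusted p = 0.658 from edgeR). The difference between these effects was -0.25 (SE 0.073, adjusted p = 0.0143 from edgeR). The knockout stood at -0.22 against wild type on the soft hydrogel (adjusted p = 0.00512 from edgeR). On stiff it stood at -0.47 (95% interval -0.58 to -0.36, adjusted p = 3.88e-07 from edgeR). None of these reached the fold required for a call, but without the second wild-type stiff library the last was -0.51 and was called (adjusted p = 8.37e-06 from edgeR). The windows shared with another gene, a pseudogene of Trp53, came to 0.903%, and a gene on the other strand that overlaps Trp53 had 4 to 18 counts in a library.

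Mdm2 (ENSMUSG00000020184, chromosome 10 from 117524780 to 117546663, minus strand) encodes the ligase that marks p53 for degradation. It had 117 and 112 CPM in wild-type soft, 121 and 120 in wild-type stiff, 107 and 110.3 in knockout soft and 107 and 105 in knockout stiff libraries. The wild-type libraries stood above the knockout libraries, by a small margin on the soft hydrogel. The effect of stiffness was 0.07 on the log2 scale in wild type (95% interval -0.035 to 0.17, adjusted p = 0.292 from edgeR) and -0.04 in the knockout (95% interval -0.14 to 0.063, adjusted p = 0.864 from edgeR). The knockout stood at -0.19 against wild type on the stiff hydrogel (SE 0.049, adjusted p = 0.00394 from edgeR), below the fold of a call, and at -0.08 on the soft (adjusted p = 0.311 from edgeR).

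Cdkn1a (ENSMUSG00000023067, chromosome 17 from 29309950 to 29319701, plus strand) encodes p21, which inhibits cyclin-dependent kinases and halts the cell cycle. Cdkn1a holds 2 half-sites in the promoter window printed above and none in its other window. It had 233 and 241 CPM in wild-type soft libraries, 222 and 224 in wild-type stiff, 260.01 and 249 in knockout soft and 264 and 250 in knockout stiff libraries. The knockout libraries were the highest on both hydrogels, and the wild-type stiff libraries were the lowest. In wild type the effect of stiffness was -0.09 (95% interval -0.18 to 0.004, adjusted p = 0.120 from edgeR) and in the knockout 0.01 (95% interval -0.082 to 0.10, adjusted p = 0.971 from edgeR). On the stiff hydrogel the knockout stood 0.20 above wild type (95% interval 0.11 to 0.30, adjusted p = 0.000883 from edgeR), a difference of 15.2% that was not called. On the soft hydrogel the difference was 0.10 (adjusted p = 0.124 from edgeR). Another gene of the reference annotation holds 9.87% of the 64-base windows of its longest transcript, so its count is uncertain to that extent.

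Ccng1 (ENSMUSG00000020326, chromosome 11 from 40639379 to 40646138, minus strand) encodes cyclin G1, a p53 target that acts back on Mdm2. It had 146 and 144 CPM in wild-type soft, 158 and 158 in wild-type stiff, 145 and 152 in knockout soft and 141 and 145 in knockout stiff libraries. The wild-type stiff libraries stood above all others, and the other 3 groups overlapped in part. The log2 fold change with stiffness was 0.13 in wild type (adjusted p = 0.0389 from edgeR) and -0.05 in the knockout (adjusted p = 0.813 from edgeR), and the difference of these effects was -0.18 (adjusted p = 0.0502 from edgeR). On the stiff hydrogel the knockout stood at -0.14 against wild type (adjusted p = 0.0163 from edgeR). This gene had the narrowest span of group means of the 10.

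Bax and Bbc3 act on the mitochondrial outer membrane: Bax forms the pore that releases cytochrome c, and Bbc3 encodes PUMA, which blocks the survival proteins of the BCL2 family. Bax (ENSMUSG00000003873, chromosome 7 from 45111121 to 45116322, minus strand) had 98.7 and 103 CPM in wild-type soft, 98.2 and 105 in wild-type stiff, 113 and 108 in knockout soft and 117 and 116 in knockout stiff libraries. Every knockout library was above every wild-type library, and the wild-type soft and stiff libraries overlapped. The knockout stood 0.20 above wild type on the stiff hydrogel (SE 0.053, adjusted p = 0.00409 from edgeR), below the fold of a call, and 0.13 on the soft (adjusted p = 0.106 from edgeR). Stiffness gave a log2 fold change of 0.0081 in wild type (95% interval -0.10 to 0.12, adjusted p = 0.924 from edgeR) and of 0.08 in the knockout (adjusted p = 0.719 from edgeR). Of the windows of Bax, 12.6% are shared with Gm45808, an overlapping gene on the same strand that had 0 counts in all libraries, so the count of Bax is uncertain where reads were split or set aside. Bbc3 (ENSMUSG00000002083, chromosome 7 from 16042318 to 16052130, plus strand) was the least abundant of the 10, with 389 to 570 counts in a library. It had 21.9 and 25.0 CPM in wild-type soft, 26.0 and 25.0 in wild-type stiff, 20.2 and 19.3 in knockout soft and 22.1 and 21.7 in knockout stiff libraries. The wild-type groups met at 25.0 CPM, and the knockout libraries of each hydrogel lay below its wild-type libraries. The effect of stiffness was 0.13 in wild type (adjusted p = 0.288 from edgeR) and 0.15 in the knockout (adjusted p = 0.711 from edgeR). The former was 0.037 without the first and 0.22 without the second wild-type soft library. The knockout stood at -0.24 on the soft (adjusted p = 0.0802 from edgeR) and at -0.22 on the stiff hydrogel (adjusted p = 0.0508 from edgeR), opposite in sign to Bax. Without the first wild-type soft library the former was -0.33 (adjusted p = 0.0410 from edgeR), and without the second it was -0.15.

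Trp53inp1 (ENSMUSG00000028211, chromosome 4 from 11156431 to 11174379, plus strand) encodes a stress protein that is induced by p53, promotes its phosphorylation and takes part in autophagy. It had 9120 and 6221 counts in wild-type soft libraries, 2790 and 2746 in wild-type stiff, 11170 and 8884 in knockout soft and 9110 and 8213 in knockout stiff libraries. As CPM these were 351 and 346, then 135 and 140, then 436 and 442, and then 427 and 406. The wild-type stiff libraries stood far below the rest, the knockout libraries were the highest, and no groups overlapped. In wild type Trp53inp1 averaged 348 ± 4.06 CPM on soft and 137 ± 3.53 on stiff (SD, n = 2) and thus fell, by a log2 fold change of -1.35 (SE 0.042, 95% interval -1.44 to -1.26, adjusted p = 2.64e-14 from edgeR). In the knockout it went from 439 ± 4.17 to 416 ± 14.8 CPM, a log2 fold change of -0.08 (95% interval -0.16 to 0.0088, adjusted p = 0.676 from edgeR). The difference between the effects was itself called, at 1.27 (SE 0.058, 95% interval 1.15 to 1.39, adjusted p = 1.51e-11 from edgeR). On the stiff hydrogel the level in the knockout was 3.04 times that in wild type, a log2 fold change of 1.60 (SE 0.042, 95% interval 1.51 to 1.69, adjusted p = 9.60e-16 from edgeR). On the soft hydrogel it was 0.33 (adjusted p = 7.22e-06 from edgeR), which did not reach the fold of a call. The summed stellate, endothelial and Kupffer cell markers were also lowest in wild-type stiff libraries and higher in the knockout than in wild type, with 4 of 8 tested stellate, 3 of 8 endothelial and 4 of 8 Kupffer cell markers called lower with stiffness in wild type (1 stellate marker was called higher). Between genotypes 7, 6 and 6 of them were called higher in the knockout on stiff, and 1 stellate marker lower. Of the hepatocyte markers, Hnf4a (-0.98), Asgr1 (-0.82) and Tat (-0.72) were called lower with stiffness in wild type. The same 3 were called higher in the knockout on stiff (1.17, 0.80 and 1.02), where Alb (-0.66) and Cps1 (-0.68) were called lower. The summed hepatocyte markers, mostly Alb, were highest in wild-type stiff libraries and lower in the knockout than in wild type. The part of all these markers in the difference was not tested.

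Phlda3 and Sesn2 restrain growth signalling downstream of p53: Phlda3 competes with Akt for membrane lipids, and Sesn2, also a target of the integrated stress response, holds back mTORC1. Phlda3 (ENSMUSG00000041801, chromosome 1 from 135693857 to 135696874, plus strand) had 53.9 and 56.8 CPM in wild-type soft, 58.9 and 52.2 in wild-type stiff, 59.6 and 64.2 in knockout soft and 64.2 and 64.7 in knockout stiff libraries. Each knockout library stood above each wild-type library, and the stiff and soft groups overlapped in wild type. The difference between genotypes was 0.21 on the stiff hydrogel (SE 0.066, adjusted p = 0.0118 from edgeR) and 0.16 on the soft (adjusted p = 0.104 from edgeR). Without the second wild-type stiff library the former was 0.12 (adjusted p = 0.239 from edgeR), and without the second knockout soft library the latter was 0.11. With stiffness it was 0.0073 in wild type (adjusted p = 0.946 from edgeR) and 0.06 in the knockout (adjusted p = 0.844 from edgeR). Sesn2 (ENSMUSG00000028893, chromosome 4 from 132219343 to 132237812, minus strand) had 58.5 and 63.5 CPM in wild-type soft, 51.8 and 52.4 in wild-type stiff, 59.7 and 62.8 in knockout soft and 69.4 and 60.5 in knockout stiff libraries. Its wild-type stiff libraries were the lowest, and the other groups overlapped. With stiffness the log2 fold change was -0.22 in wild type (SE 0.070, adjusted p = 0.0152 from edgeR) and 0.09 in the knockout (adjusted p = 0.783 from edgeR), and the difference between them was 0.31 (SE 0.097, adjusted p = 0.0225 from edgeR). On the stiff hydrogel the knockout stood at 0.32 against wild type (SE 0.069, adjusted p = 0.000906 from edgeR), and at 0.21 without the first knockout stiff library. Its interaction without that library was 0.205 (adjusted p = 0.141 from edgeR). None of these values was called.

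Gdf15 (ENSMUSG00000038508, chromosome 8 from 71082043 to 71085106, minus strand) encodes a secreted stress cytokine that acts on appetite through a receptor in the hindbrain and is induced by p53 and by the integrated stress response. It had 3145 and 2490 counts in wild-type soft libraries, 3438 and 3148 in wild-type stiff, 1759 and 1349 in knockout soft and 1531 and 1425 in knockout stiff libraries. As CPM these were 121 and 138, then 166 and 160, then 68.7 and 67.1, and then 71.7 and 70.4. All 4 knockout libraries stood well below all wild-type libraries, and wild-type stiff stood above wild-type soft. On the soft hydrogel Gdf15 was lower in the knockout, at 67.9 ± 1.10 against 130 ± 12.1 CPM (SD, n = 2), with a log2 fold change of -0.93 (SE 0.060, 95% interval -1.06 to -0.80, adjusted p = 2.02e-09 from edgeR). On the stiff hydrogel it was lower by more, at 71.1 ± 0.92 against 163 ± 4.12 CPM, a log2 fold change of -1.20 (SE 0.060, 95% interval -1.32 to -1.07, adjusted p = 7.18e-12 from edgeR). The difference of these values equals that of the stiffness effects, -0.27 (SE 0.084, adjusted p = 0.0241 from edgeR), which was not called. Within wild type the effect of stiffness was 0.33 (95% interval 0.21 to 0.45, adjusted p = 0.000142 from edgeR) and within the knockout 0.07 (adjusted p = 0.822 from edgeR), neither of them called. Gdf15 thus ran opposite to Trp53inp1 between genotypes on the stiff hydrogel. The summed cholangiocyte markers were also lower in the knockout (321 to 348 against 549 to 602 CPM). Most of each sum was Spp1 (280 to 310 against 507 to 543 CPM). Of 5 tested ones, 2 (Spp1 and Krt19) were called lower on each hydrogel and 0 higher. The summed hepatocyte markers, mostly Alb, were lower in the knockout too (60784 to 61442 against 87949 to 92480 CPM). Of the 8 tested hepatocyte markers, 0 were called higher and 2 lower in the knockout on soft, and 3 higher and 2 lower on stiff. The part of these markers in the difference was not tested.

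**Figure D2:**
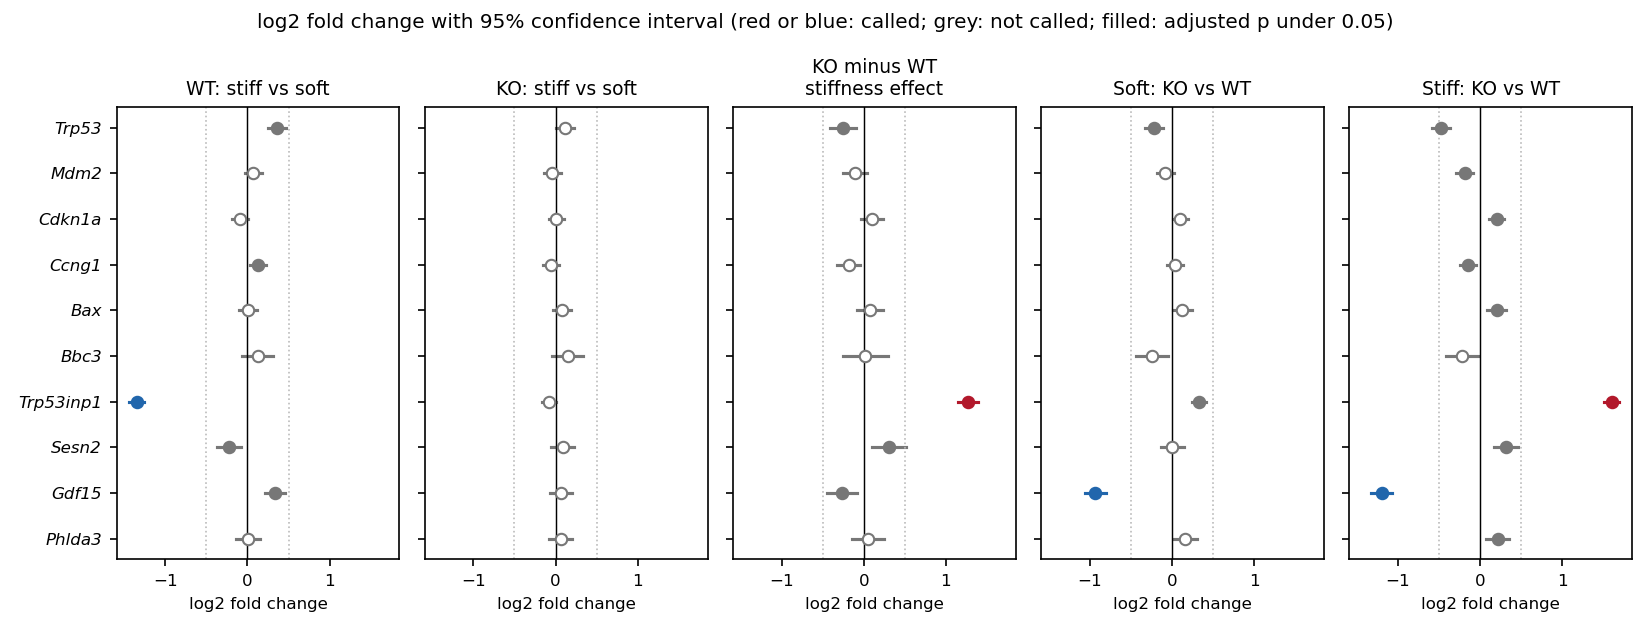
Log2 fold changes of the 10 genes in the 5 comparisons with 95% intervals from edgeR's quasi-likelihood fit, red for genes called higher and blue for genes called lower, filled where the adjusted p is under 0.05, with dotted lines at the fold of a call (0.5 in either direction). Trp53inp1 stands at -1.35 in wild type and 1.60 between genotypes on the stiff hydrogel, Gdf15 at -0.93 and -1.20 between genotypes, and no interval reaches past a dotted line in the knockout panel.

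Counted over the 10 genes, the effect of stiffness in wild type gave 0 called higher and 1 called lower (Trp53inp1), where 10% and 9.26% of all tested genes were called higher and lower. At the adjusted p alone, with no minimum fold, 3 stood higher and 2 lower (all tested genes 21.1% and 20%). The numbers at an unadjusted p under 0.05 were the same, beside 3481 and 3373 of all 14279 tested genes. The median log2 fold change of the 10 was 0.038, beside -0.0087 over all tested genes. In the knockout, 0 were called by edgeR and 0 by DESeq2, and the background was 0.014% higher and 0.007% lower, both with and without the minimum fold. There 0 of the 10 had an unadjusted p under 0.05, beside 622 genes higher and 455 lower of all 14279 tested. For the difference between the stiffness effects, 1 gene was called with a more positive effect in the knockout and 0 with a more negative one (background 8.64% and 8.21%), and 2 and 2 passed the adjusted p alone (background 15.3% and 14.1%). At an unadjusted p under 0.05 there were 2 and 3 (all tested genes 2863 and 2699 of 14279), and DESeq2 called 1 and 0.

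Between genotypes on the soft hydrogel, 0 of the 10 were called higher and 1 lower, Gdf15, where 2.02% and 4.65% of tested genes were called. At the adjusted p alone there were 1 higher and 2 lower (background 7.48% and 10.9%). At an unadjusted p under 0.05 there were 4 and 3 of the 10, beside 1932 and 2301 of all 14279 tested genes. For genotype on stiff, 1 was called higher and 1 lower (background 13.7% and 15%), and 5 were higher and 4 lower at the adjusted p alone (background 25.4% and 25.7%). The 5 were Cdkn1a, Bax, Trp53inp1, Sesn2 and Phlda3, and the 4 were Trp53, Mdm2, Ccng1 and Gdf15. Bbc3 alone missed the adjusted p in that comparison. These counts at the adjusted p alone depended on single libraries: with 1 library left out, the adjusted p was above 0.05 in at least 1 fit for Ccng1 and Sesn2 with stiffness in wild type, for Trp53, Sesn2 and Gdf15 in the interaction, for Trp53 between genotypes on soft, and for Bax, Ccng1 and Phlda3 on stiff. Of the 9 differences between genotypes on stiff at the adjusted p alone, 7 lay between 0.14 and 0.47 on the log2 scale in absolute size. No more than 1 of the 10 was called in either direction in any comparison, and the median of the 10 on the stiff hydrogel was 0.028 beside 0.011 over all tested genes.

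Other genes of the pathway were read from lists, whose counts stand beside the same measures of all 14279 tested genes. At an unadjusted p under 0.05, 3481 of these were higher and 3373 lower with stiffness in wild type, and 622 and 455 in the knockout. For the interaction the numbers were 2863 and 2699, and between genotypes 1932 and 2301 on soft and 4017 and 3998 on stiff. The shares called between genotypes were 2.02% and 4.65% on soft, 13.7% and 15% on stiff, and 8.64% and 8.21% for the interaction. With stiffness in wild type 10% were called higher and 9.26% lower. Of 12 regulators of p53, all of them tested, 2 were called higher with stiffness in wild type, near that share, and 0 lower (2 lower at an unadjusted p under 0.05): the checkpoint kinases Chek1 (log2 fold change 1.58, adjusted p = 4.96e-06 from edgeR) and Chek2 (0.53, adjusted p = 0.0485 from edgeR). Chek1 was scarce, at 2.85 and 2.50 CPM in wild-type soft and 7.57 and 8.54 in wild-type stiff libraries, and at 1.45 to 1.98 CPM in the knockout libraries. The knockout on stiff had 2 regulators called higher and 2 lower than wild type, with Chek1 at -2.23, Chek2 at -0.60, the ubiquitin ligase Rchy1 at 0.54 and the kinase Atr at 0.51. Rchy1 shares 19.8% of its windows with another gene and is uncertain. Between genotypes on soft 0 were called, with an unadjusted p under 0.05 for 3 higher and 1 lower (edgeR). The p53 relatives Trp63 and Trp73 were not tested, with at most 1 and 3 counts in a library.

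Among 11 tested genes of the arrest and feedback targets, which include Gadd45a and Btg2, 2 rose and 1 fell with stiffness in wild type. Plk2, which encodes a polo-like kinase, had 64.7 and 60.8 CPM in wild-type soft and 262 and 258 in wild-type stiff libraries, but 30.1 to 32.3 CPM in the 4 knockout libraries. Its rise in wild type was 2.05 (adjusted p = 2.30e-15 from edgeR). Between genotypes on stiff it was lower in the knockout, with a log2 fold change of -3.03 (adjusted p = 9.80e-18 from edgeR). Sfn, which encodes the checkpoint protein 14-3-3 sigma, ran the other way, with 66.4 and 75.1 CPM in wild-type soft, 22.0 and 21.4 in wild-type stiff, 129 and 132 in knockout soft and 152 and 136 in knockout stiff libraries. It fell by 1.70 with stiffness in wild type (adjusted p = 2.96e-12 from edgeR) and stood 2.73 higher in the knockout on the stiff hydrogel (adjusted p = 1.14e-15 from edgeR). It shares 10.2% of its windows with another gene and is uncertain to that extent. Plk2 and Sfn, both counted as p53 targets, thus moved in opposite directions in these libraries. The third gene called with stiffness in wild type was Ckap2 (0.70). Btg2, an anti-proliferative co-regulator, was lower in the knockout both on soft (-0.72) and on stiff (-0.98), with 119 to 125 CPM in knockout and 194 to 244 CPM in wild-type libraries. In the knockout 1 gene of this list was called higher and 4 lower than in wild type on stiff, and 1 and 2 on soft.

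Of 13 targets in apoptosis and autophagy, 5 rose with stiffness in wild type and 0 fell (1 at an unadjusted p under 0.05), where 10% and 9.26% of all tested genes did, the median log2 fold change being 0.27. The largest rises were those of the death receptor Fas (1.03), of Siva1 (0.94) and of Bid, which links death receptors to mitochondria (0.90). Between genotypes on stiff 5 were called lower in the knockout, with Siva1 at -1.53, Bid at -1.34 and Fas at -1.15, and 2 higher, the autophagy gene Dram1 (1.07) and Trp53i11 (0.72). Dram1 rested on 18 to 49 counts in a library. Fas had 6.55 and 7.82 CPM in wild-type soft, 14.7 and 14.8 in wild-type stiff and 6.08 to 7.91 in knockout libraries. Bid shares 24.1% of its windows with another gene and overlaps Bcl2l13 on the other strand, so its count is uncertain. Between genotypes on soft Bid alone was called, at -0.50. Of 5 DNA repair targets 0 were called in any comparison by edgeR, and in wild type 1 had an unadjusted p under 0.05 with a higher and 2 with a lower level on the stiff hydrogel. The counts on that measure were 1 and 0 in each comparison of genotypes and for the interaction, and 0 and 0 in the knockout. Of 9 tested targets in metabolism and redox control, 1 rose with stiffness in wild type, Tigar (0.54), and 2 were lower in the knockout on each hydrogel. These were Gls2, a mitochondrial glutaminase, at -0.89 and Aldh4a1 at -0.60 on the soft, and Gls2 at -1.23 and Tigar at -0.59 on the stiff hydrogel. Aldh4a1 shares 34.6% of its windows with another gene and is uncertain. Gls2 shares 0% of its windows but overlaps Spryd4 on the other strand by 97 bases, and its count is uncertain only for reads there.

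**Figure D3:**
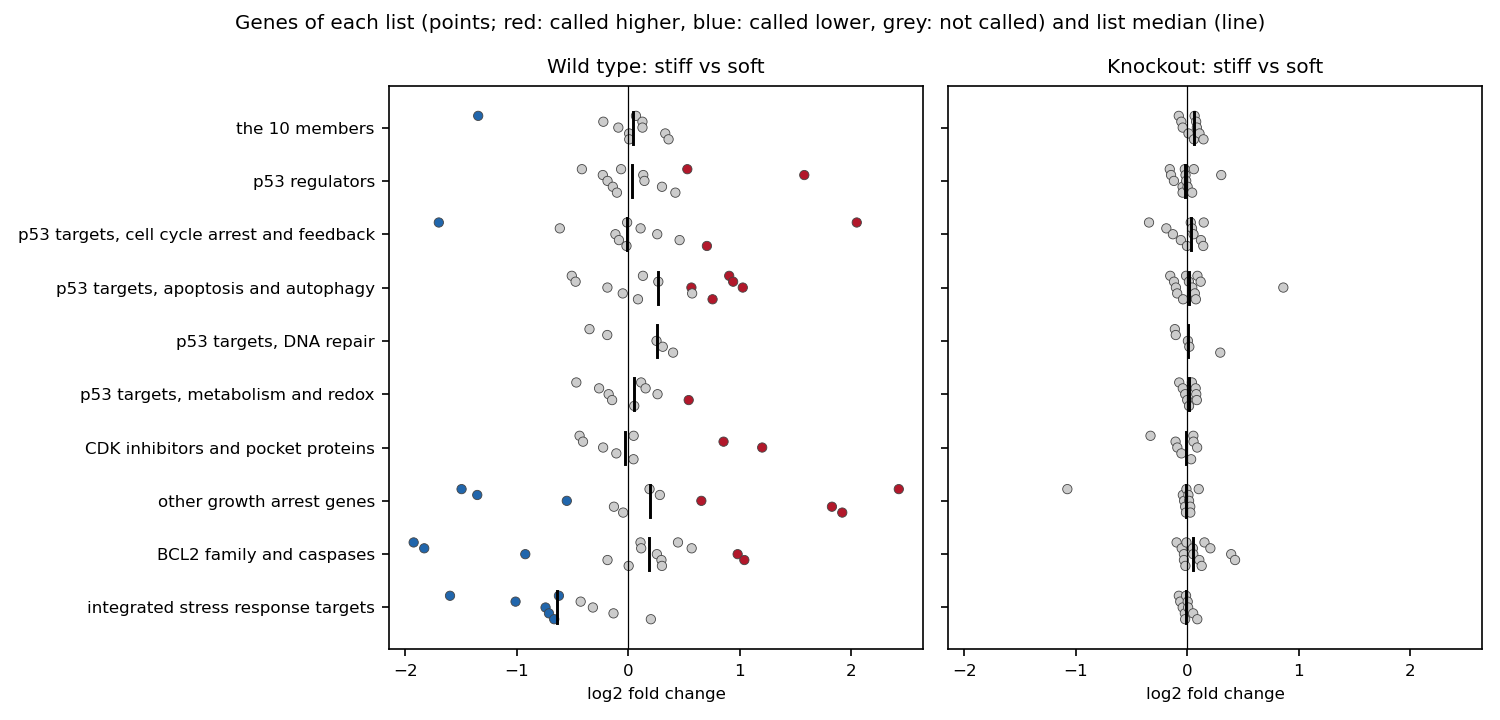
Log2 fold changes between stiff and soft hydrogel in wild type (left) and in the knockout (right) for each tested gene of the 10 members and of the lists, with a bar at each list's median. Among the lists drawn, the targets of the integrated stress response sit lowest in wild type with a median of -0.64, and in the knockout the medians drawn lie between -0.019 and 0.063. The p53 relatives, neither of them tested, and the cell type markers are not drawn.

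Growth arrest outside p53 was read from 2 lists. Of 8 tested CDK inhibitors and pocket proteins, 2 rose with stiffness in wild type, Cdkn2d (1.20), an inhibitor of the G1 kinases, and the pocket protein gene Rbl1 (0.85), and 0 fell (2 at an unadjusted p under 0.05). Both were lower in the knockout on stiff (-1.52 and -1.01), and Cdkn2b was higher (0.58). Cdkn2d rested on 11 to 48 counts in a library. In the genotype comparison on soft 0 were called, with an unadjusted p under 0.05 for 3 higher and 0 lower (edgeR). Of 11 other growth arrest genes, 4 rose and 3 fell with stiffness in wild type. The stress sensor Gadd45b had 20.6 and 21.8 CPM in wild-type soft, 79.9 and 80.1 in wild-type stiff, 10.8 and 11.7 in knockout soft and 10.5 and 11.6 in knockout stiff libraries. Its log2 fold change in wild type was 1.92 (adjusted p = 6.89e-13 from edgeR), and that of Gadd45g was 2.43 (adjusted p = 5.40e-10 from edgeR). Cdkn3 was called at 1.83 (adjusted p = 0.0456 from edgeR) on 1 to 15 counts in a library. The 3 that fell were Klf4 (-1.50), a transcription factor that restrains division, Gas2 (-1.35) and Ndrg1 (-0.55), and Gas2 is uncertain because it overlaps Fancf. Of this list 3 genes were higher in the knockout on stiff, with Klf4 at 2.00, Gas2 at 1.65 and Ndrg1 at 0.84, and 4 were lower, among them Gadd45b at -2.86 and Gadd45g at -2.75. The calls on soft were Gadd45b (-0.91) and Gas6 (-0.85), lower in the knockout, and Klf4 (0.52), higher.

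Among 14 genes of the BCL2 family and caspases, the partners of Bax and Bbc3, 2 rose and 3 fell with stiffness in wild type (all tested genes 10% and 9.26%). Those that rose were Bok (1.04) and Bik (0.98), and those that fell were Hrk (-1.93), Bmf (-1.83) and Bcl2l11 (-0.92). Hrk rested on 3 to 37 counts in a library. In the knockout on stiff Hrk (2.56), Bmf (2.02) and Bcl2l11 (1.53) were called higher than in wild type and 4 genes lower (all tested genes 13.7% and 15%), with the survival gene Bcl2 at -1.51, Bok at -0.81 and Bik at -0.70. Genotype on soft gave 1 called higher, Bcl2l11 (0.63), and 1 lower, Bcl2 (-1.33). Bcl2 was scarce as well, with 14 to 52 counts in a library.

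Sesn2 and Gdf15 are also known as targets of the integrated stress response, and 10 further targets were read beside them. With stiffness in wild type 0 were called higher and 6 lower (all tested genes 10% and 9.26%), and the median was -0.64. Of these Fgf21 stood at -1.60, Trib3, a pseudokinase, at -1.01 and Chac1 at -0.74. At an unadjusted p under 0.05, 1 gene was higher (edgeR). Trib3 had 102 and 102 CPM in wild-type soft, 55.2 and 45.9 in wild-type stiff, 187 and 193 in knockout soft and 201 and 203 in knockout stiff libraries. The knockout on stiff had 5 called higher and 1 lower (all tested genes 13.7% and 15%), with Trib3 at 2.00, Fgf21 at 1.84, Ddit3 at 1.16 and Psat1 at -0.52. For genotype on soft Trib3 (0.90) and Ddit3 (0.53) were called higher. Ddit3 overlaps Mars1 and is uncertain. Sesn2 had values of the same sign as the medians of this list in wild type and between genotypes on the stiff hydrogel, and Gdf15 had values of the opposite sign. In the knockout 0 genes of the pathway, arrest, BCL2 and stress lists were called with stiffness by edgeR. At an unadjusted p under 0.05 there were 1 lower regulator, 1 higher and 1 lower arrest and feedback target and 1 higher apoptosis target, and 0 in the other lists.

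The genes whose 4 group means were most like those of a member were found among tested genes with a mean of at least 100 counts, by the root mean square difference of centred log2 CPM over the 4 groups. For Trp53inp1 the nearest was Btc, which encodes the growth factor betacellulin, with a difference of 0.0044, followed by Gjb2 (0.025) and Acnat1 (0.030). For Cdkn1a, whose means spanned only 0.20 on the log2 scale, they were Ttc37 (0.0027), Pigq (0.0034) and Mau2 (0.0035). With 4 groups and many genes this is a ranking of likeness and no test.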

How the data were processed

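Poly-T selected RNA of 8 hepatocyte libraries was sequenced as paired-end reads of 150 bases. The authors aligned the reads with HISAT2 (2.0.5, per the submitters' processing notes) and counted them on genes with featureCounts. The deposited values are raw counts per gene, without normalization. The notes name mm9, but the start and end of 1472 of 52073 genes matched by ID equal those of GENCODE M21 (GRCm38), as do those of 1 of the 10 members, so positions are printed as deposited and sequences come from GRCm38.p6. The study's methods name dUTP in cDNA synthesis, which marks strand. Strand setting of the counting, handling of reads with several matches and annotation release are not given in the sources used here.

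The tests were run with edgeR 4.0.16 and limma 3.58.1 under R 4.3.3, and DESeq2 1.42.0 was an alternative. Genes were filtered with filterByExpr by group and scaled by TMM, and all 8 libraries entered 1 quasi-likelihood fit with a term per group and 4 residual degrees of freedom. The fit added 13.3 prior degrees of freedom borrowed from all tested genes. The p-values and intervals of a gene thus do not rest on its own replicate spread alone. Standard errors are the absolute log2 fold change over the square root of the F statistic, and the prior count for log2 CPM was 2. The chi-square between replicates, divided by its degrees of freedom, was 2.62 to 5.45, above sampling noise. Totals of 18324083 to 26442310 counts set the precision. The text names all 10 members, Yap1 and Wwtr1, up to 3 called genes with the largest rise and fall per list and comparison, and the 3 genes nearest in pattern to Cdkn1a and Trp53inp1. Called members with a half-site in a window were to have their promoters printed, and there were none. The members and lists were chosen with earlier results of these data known, and 1 gene of the lists is not reported here. Windows of 64 bases of a gene's longest transcript were counted as shared where any transcript of another gene (GENCODE M21) held them. Both orientations were searched, so genes that overlap on opposite strands count as sharing. Alternatives covered the tool, the libraries in the fit, scaling, filter, fold threshold, replicate block, robust fitting and each library left out. The fit was tested on simulated data of the wild-type comparison, in which 200 of 13996 genes differed by 1 on the log2 scale. At the adjusted p alone, with no minimum fold, edgeR found 74% of these and passed 16 unchanged genes, DESeq2 70% and 5. At a difference of 0.5 (13998 genes) edgeR found 53.5% and passed 12 unchanged genes, DESeq2 49% and 3. The real comparison had many more genes at the adjusted p alone, 3006 higher and 2853 lower.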

Additional observations from a re-analysis of the deposited data

Results flagged for a closer look

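Each effect below differed between genotypes by the interaction term of edgeR's fit. Of all 14279 tested genes, 8.64% were called with a more positive effect in the knockout and 8.21% with a more negative one. The 10 p53 pathway genes are given at an adjusted p under 0.05 without a minimum fold, and for each list up to 3 genes per direction are given that also passed the minimum fold. Values are the stiffness effect in the knockout minus that in wild type, on the log2 scale. Among the 10 genes they were 1.27 for Trp53inp1, 0.31 for Sesn2, -0.25 for Trp53 and -0.27 for Gdf15.

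Among p53 regulators and targets, the values were -1.70 for Chek1, -2.02 for Plk2, 1.84 for Sfn, -1.05 for Ckap2, 1.37 for Dram1, -1.15 for Fas, -1.03 for Siva1, -0.86 for Pidd1 and -0.58 for Tigar. Dram1 rested on 0.91 to 2.42 CPM. Among growth arrest genes they were -0.91 for Rbl1, 1.48 for Klf4, 1.38 for Gas2, 0.56 for Ndrg1, -2.90 for Cdkn3, -2.40 for Gadd45g and -1.95 for Gadd45b. Cdkn3 had 1 and 8 counts in the knockout stiff libraries and at most 15 in any. In the BCL2 family and caspases they were 2.13 for Hrk, 1.80 for Bmf, 0.89 for Bcl2l11 and -0.93 for Bok. Among stress response targets they were 1.65 for Fgf21, 1.10 for Trib3 and 0.72 for Chac1. Of the 10 tested stress response targets, 6 were called with a more positive effect and 0 with a more negative one (all tested genes 8.64% and 8.21%). At the adjusted p alone these were 8 and 1 (all tested genes 15.3% and 14.1%). Groups of 2 libraries are too small for a test of single outlying libraries.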

How the results depend on the processing

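Over 18 alternative settings, the called values kept their direction and their side of the threshold except Gdf15 on the soft hydrogel, which at -0.93 is not called with a threshold of 1, leaving 0 members called lower there. Trp53inp1 ran from -1.37 to -1.31 with stiffness in wild type, from 1.23 to 1.30 for the interaction and from 1.56 to 1.66 between genotypes on the stiff hydrogel, and Gdf15 from -1.02 to -0.83 on soft and from -1.23 to -1.14 on stiff. With no minimum fold, members called higher and lower were 3 and 2 with stiffness in wild type, 2 and 2 for the interaction, 1 and 2 for genotype on soft and 5 and 4 for genotype on stiff. With 1 library left out, members called lower on the stiff hydrogel ran from 1 to 2. Of 890 recomputed log2 fold changes of members, 19 changed sign, all of them uncalled and in 6 genes. With upper quartile scaling, Bax and Phlda3 with stiffness in wild type were -0.0006 and -0.0016, and with no filter Cdkn1a in the knockout was -0.0018 and the interaction of Bbc3 -0.0030. With 1 library left out, Bax ran from -0.0394 to 0.0618 and Phlda3 from -0.0776 to 0.0927 with stiffness in wild type, and Cdkn1a from -0.0318 to 0.0412 and Sesn2 from -0.0200 to 0.1728 with stiffness in the knockout. The interactions of Bbc3 ran from -0.0843 to 0.1002 and of Phlda3 from -0.0389 to 0.1292, and the soft genotype differences of Sesn2 from -0.0508 to 0.0651 and of Ccng1 from -0.0032 to 0.0714. The cause was not tested. No scaling moved the median of all genes by more than 0.0571.

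The labels do not say what replicate numbers share, and each comparison has only 2 pairs. Correlations of the replicate differences between groups ran from -0.10 to 0.042. With a replicate block, 1408 genes were called higher with stiffness in wild type, no member gained or lost a call, and Trp53inp1 stood at -1.35 there and at 1.60 between genotypes on the stiff hydrogel, while Ccng1 with stiffness in wild type had an adjusted p of 0.0561. Depth did not leave any member near the limit of detection: the lowest count was 389. The design has 2 libraries per group of unknown animal origin.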
